A study of Mus musculus with 6 samples.

Results

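The genes described here are 45 genes of the cell cycle and of mitosis, taken by symbol from a fixed list out of the 31053 genes in the count tables, and all 45 were found. The list was set by gene name and not by a limit on a measured value, but with earlier results of these data known. By role, 26 members act in mitosis and 19 in DNA replication. The members lie on 17 mouse chromosomes (GRCm38), with at most 7 on the same chromosome.

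They were measured by single-cell RNA sequencing of dorsal skin from female C57BL/6 mice aged 8 to 10 weeks, in 3 groups of 2 libraries. The Sham group had no treatment. For IMQ, 62.5 mg of cream with 5% imiquimod was put on the shaved back daily for 4 days, which induces psoriasis-like skin inflammation. The IMQ+SHP099 group had this cream and, by gavage, 10 mg/kg SHP099 daily for 4 days. SHP099 is an allosteric compound that inhibits SHP2, a tyrosine phosphatase. The skin was taken 1 day after the last treatment. Per the paper, 2 mice were pooled in each Sham library and 3 in each IMQ and IMQ+SHP099 library. Pooling makes a library the unit of replication (n = 2 per group), and every p-value measures only the spread between libraries. The comparison of IMQ with Sham addresses what the cream changed, and that of IMQ+SHP099 with IMQ addresses what the inhibitor changed on top of it. Both comparisons use the same IMQ libraries.

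A dividing cell first loads the MCM helicase onto its replication origins, copies its DNA around the sliding clamp PCNA with deoxynucleotides made by ribonucleotide reductase, and then separates the copies on a spindle driven by cyclin B, CDK1 and the Aurora and Polo kinases. Transcripts of the replication genes peak before those of the mitotic genes, and both are low in resting cells. E2F factors act on many replication genes, and the CCAAT-binding factor NF-Y and the DREAM and MYB-MuvB complexes act on many mitotic genes. In healthy epidermis division takes place in the basal layer next to the dermis, and cells leave the cycle as they move up into the suprabasal layers. An excess of dividing keratinocytes is a hallmark of psoriasis. Mature neutrophils do not divide.

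The promoters of the members held the CCAAT box more often than promoters in general, and E2F sites stood mostly in those of replication members. RefSeq promoter windows (GRCm38.p6, 250 bases before to 50 after the start site) were found for 38 of the 45 members, in 41 entries. Only the 250 bases before the start site were searched. Aurkb, Ccna2, Ccne2, Gins2, Kif20a, Mcm4 and Tpx2 had none. The CCAAT box (CCAAT, searched on both strands) was found in 91.3% of the entries of mitosis members and in 66.67% of those of replication members, beside 33.85% of all 32851 entries. At least 2 such boxes were found in 60.87%, 38.89% and 10.09%, in the same order. The cell cycle homology region (TTTGAA or TTCGAA, both strands) was found in 39.13% of mitosis, 11.11% of replication and 17.15% of all entries. An E2F site (TTTCGCGC, TTTGGCGC, TTTCCCGC or TTTGCCGC, both strands, matches allowed to overlap) was found in 4.348% of mitosis, 33.33% of replication and 1.86% of all entries. A match describes letters in a window, and no binding was measured here. The 200 bases before the start site are shown for a mitotic cyclin and for 2 subunits of the replicative helicase, because the levels of these genes in basal keratinocytes are given below. Ccnb2 (chr9:70421555-70421754, minus strand) has 3 CCAAT boxes and a homology region, Mcm5 (chr8:75109309-75109508, plus strand) has 2 CCAAT boxes and 2 overlapping E2F sites, and Mcm3 (chr1:20820313-20820512, minus strand) has 3 CCAAT boxes. Capitals mark these matches, and each sequence runs 5′ to 3′ on the strand of its gene.
Ccnb2: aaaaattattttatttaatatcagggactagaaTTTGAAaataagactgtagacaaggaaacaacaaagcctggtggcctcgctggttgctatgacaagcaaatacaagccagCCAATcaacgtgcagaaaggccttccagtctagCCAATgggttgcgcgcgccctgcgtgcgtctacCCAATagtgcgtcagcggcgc
Mcm5: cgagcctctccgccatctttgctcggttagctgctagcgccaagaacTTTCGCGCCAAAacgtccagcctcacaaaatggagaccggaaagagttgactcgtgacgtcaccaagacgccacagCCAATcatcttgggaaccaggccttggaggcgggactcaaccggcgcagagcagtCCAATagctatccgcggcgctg
Mcm3: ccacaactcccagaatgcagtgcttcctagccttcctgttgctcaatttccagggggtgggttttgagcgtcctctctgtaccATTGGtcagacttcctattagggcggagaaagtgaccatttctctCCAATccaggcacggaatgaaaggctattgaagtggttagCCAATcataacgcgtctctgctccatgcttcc
In Ccnb2 the boxes begin 87, 54 and 21 bases before the start site and the homology region begins 167 before it. In Mcm5 the E2F sites begin 153 and 149 bases before the start site.

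Of 55201 deposited barcodes, 50850 passed the filters, 7382 to 10293 per library. The deposited totals were 53913865 to 188283327 UMIs, where a UMI is a tag that marks 1 captured molecule. The median kept cell held 5645 UMIs in IMQ+SHP099 replicate 2 and 18263.5 in IMQ+SHP099 replicate 1, the shallowest and the deepest library. Libraries shared 12 to 30 cell barcodes per pair, at most 0.391% of the smaller one. Cells were assigned to 9 classes by marker genes, and no member is a marker. Of the markers, 8 of 9 mural, 9 of 10 fibroblast and 10 of 12 myeloid ones were highest in their own class, as were all markers of the other 6 classes. Sham replicate 2 stood apart from the other 5 libraries. It held 115 keratinocytes of the hair matrix gate, the dividing cells that build a growing hair, against 2 to 6 in each other library. Of these 115 cells, 35.7% had 10 or more member UMIs per 10000. Of its 27 melanocytes 59.3% passed the same limit, against 0% to 14.3% in the other libraries (8 to 35 melanocytes each, and the 0% is of 8). Its part in the results below was not tested, and counts without it are given for keratinocytes, basal keratinocytes, fibroblasts and endothelial cells.

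Among keratinocytes the basal layer held the largest share of cells with cell cycle transcripts in 5 of the 6 libraries, and its share was higher in both IMQ libraries than in both Sham libraries. The exception was Sham replicate 2, where 42.9% of the hair matrix cells passed. Cells with at least 3000 UMIs were thinned to 3000, and a cell with 3 or more member UMIs was counted. Among basal keratinocytes (those led by Krt5, Krt14, Krt15, Col17a1, Itga6 and Itgb4) the share was 21.5% in Sham replicate 1 (95% Clopper-Pearson interval 20.2 to 22.8, of 3859 cells) and 34.95% in Sham replicate 2 (31.9 to 38.1, of 967). It was 69.9% in IMQ replicate 1 (65.8 to 73.8, of 532) and 72.1% in IMQ replicate 2 (67.3 to 76.6, of 373). In the IMQ+SHP099 libraries it was 78.3% (76.9 to 79.7, of 3347) and 67.2% (59.7 to 74.2, of 174). The group means were 28.2% ± 9.51 for Sham, 71.0% ± 1.55 for IMQ and 72.8% ± 7.85 for IMQ+SHP099 (SD, n = 2). The 4 libraries that received the cream thus lay above both Sham libraries, and IMQ and IMQ+SHP099 overlapped. These intervals cover counting error only, and a share over the members was given no p-value.

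Depth moved with the groups, which is why the thinned value is given first. The median basal keratinocyte held 8762 and 14095.5 UMIs for Sham, 36441 and 29947 for IMQ, and 25922 and 25357.5 for IMQ+SHP099. Thinning left out 324 and 41 Sham, 39 and 22 IMQ, and 119 and 22 IMQ+SHP099 basal cells. Without thinning, the share with 3 or more member UMIs per 10000 was 47.8% and 63.2% for Sham, 86.7% and 87.6% for IMQ, and 90.8% and 80.1% for IMQ+SHP099. A limit of 10 per 10000 gave 17.5% and 32.8%, 68.0% and 69.9%, and 76.0% and 59.7%. The order of IMQ and Sham was the same under the 3 definitions.

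Above the basal layer the shares were lower. In suprabasal keratinocytes the thinned share was 2.96% and 7.14% for Sham, 16.1% and 10.7% for IMQ, and 17.1% and 6.15% for IMQ+SHP099. Both IMQ libraries lay above both Sham libraries here too, while IMQ+SHP099 overlapped with both groups. In keratinocytes of the upper hair follicle the share was 11.7% and 11.02% for Sham and 13.4% and 14.5% for IMQ, and it reached 27.8% in IMQ+SHP099 replicate 1 against 16% in replicate 2.

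Neutrophils, as cells that do not divide, gave a background share of the members. Whether their member UMIs came from other cells or were their own was not tested. In the only libraries with more than 100 neutrophils of sufficient depth, the thinned share was 3.17% (0.872 to 7.93, of 126) in IMQ replicate 1 and 1.12% (0.231 to 3.24, of 268) in IMQ replicate 2. Over all neutrophils there the median depth was 4249.5 and 4237 UMIs. The basal shares of the same libraries lay far above these, and the suprabasal ones also lay above them. Without thinning, 11.6% to 61.9% of the neutrophils of a library passed 3 per 10000, the highest in 21 cells of Sham replicate 2 with a median of 1290 UMIs, so the unthinned shares are to be read against this background. The Sham libraries held 0 and 4 neutrophils deep enough for thinning, which leaves the Sham background unmeasured. A UMI of Mki67, the gene of the proliferation antigen Ki-67, was found in 20.5% and 24.7% of thinned IMQ basal keratinocytes. In neutrophils it was found in 0 of 126, which allows a share of up to 2.38%, and in 1 of 268 (0.373%). Pcna was found in 8.73% and 11.6% of these neutrophils, and Top2a, Ccnb1 and Mcm5 each in at most 1.12% of them. In Sham basal keratinocytes Mki67 was found in 6.22% and 16.3% of cells, and in IMQ+SHP099 in 20.4% and 18.4%. In suprabasal cells it was found in 0.559% and 3.67% of Sham, 4.40% and 2.05% of IMQ, and 3.83% and 0.769% of IMQ+SHP099 cells, so Sham and IMQ overlapped there.

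**Figure D1:**
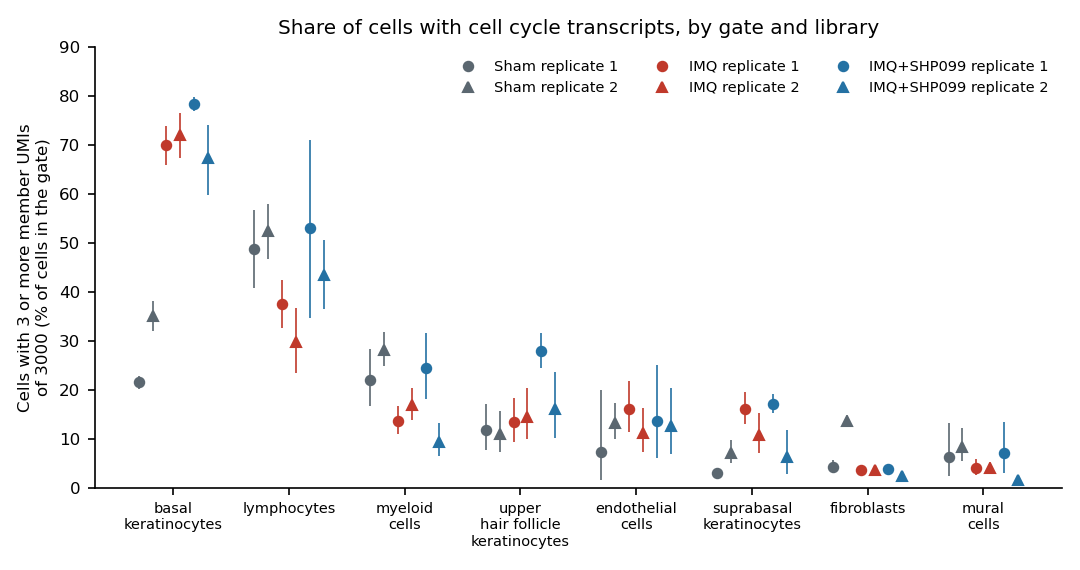
Share of cells with 3 or more member UMIs after thinning to 3000 UMIs (y axis, % of cells in the gate) in 8 gates (x axis), with a point for each library (circles replicate 1, triangles replicate 2) and bars for 95% Clopper-Pearson intervals. In basal keratinocytes the 4 libraries that received the cream lie between 67.2% and 78.3% and the Sham libraries at 21.5% and 34.95%.

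In basal keratinocytes 13 of the 45 members rose with IMQ against Sham and none fell. The members' fold changes had a median of 1.00 on the log2 scale, beside -0.08 over all 13324 genes tested, and 42 of the 45 were above 0. Of all genes 6.6% rose and 7.41% fell (14% in either direction), a smaller share than that of the members. By level alone, in CPM (the UMIs of a gene scaled to a common total of UMIs in each library's sum), 24 members had both IMQ libraries above both Sham libraries and 0 had both below, and 20.8% of all genes tested had both above. This sum was added after the data were seen, and its count depended on the libraries: it was 33 without Sham replicate 2, 6 without Sham replicate 1, 1 without IMQ replicate 1 and 3 without IMQ replicate 2, where 17.7%, 11.4%, 3.13% and 4.77% of all genes were called. Leaving out IMQ+SHP099 replicate 1 or 2 gave 7 in each case. All 45 members passed the filter on low counts here.

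Among the cyclins and their kinase, 4 of 6 members rose. In the role groups here and below, the share to compare is the 6.6% of all genes tested that rose. Cyclin B1, which activates CDK1 for entry into mitosis, is encoded by Ccnb1, and its level was 15.2 and 44.99 CPM for Sham, 60.9 and 81.1 for IMQ, and 77.5 and 74.9 for IMQ+SHP099. It rose by a log2 fold change of 1.53 (SE 0.35, adjusted p = 0.0261). Ccnb2, the other mitotic B cyclin and the promoter shown above, stood at 19.5 and 43.6 CPM for Sham, 78.1 and 90.4 for IMQ, and 77.3 and 59.5 for IMQ+SHP099 (1.68, SE 0.31, adjusted p = 0.0132). Cdk1 itself was at 29.2 and 67.0 for Sham and 86.1 and 119 for IMQ (1.35, adjusted p = 0.0372). For all 3 genes Sham and IMQ did not overlap, and Sham replicate 2 lay between Sham replicate 1 and the IMQ libraries. Ccne1, which encodes cyclin E1 and acts at the start of replication, had a low level of 1.83 and 8.51 CPM in Sham and reached 17.4 and 16.1 in IMQ (2.07, SE 0.48, adjusted p = 0.0267). Ccna2 and Ccne2 missed the threshold, at log2 fold changes of 1.27 and 1.04.

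Of the members of the anaphase ubiquitin ligase and of mitotic entry, 3 of 3 rose. Ube2c, the ubiquitin-conjugating enzyme of the anaphase-promoting complex, had the highest mean level of its role group in keratinocytes. In basal cells it was at 72.2 and 121 CPM for Sham, 174 and 253 for IMQ, and 286 and 225 for IMQ+SHP099 (1.35, adjusted p = 0.0316). Cdc20, the activator of that complex, was at 40.8 and 60.8 for Sham and 127 and 149 for IMQ (1.64, adjusted p = 0.0194). Cdca3, a factor for entry into mitosis, had a log2 fold change of 1.397 (adjusted p = 0.0202).

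Of the mitotic kinases and the chromosomal passenger complex, 3 of 5 rose. Birc5, which encodes survivin, a passenger subunit that helps to place Aurora B (GRCm38 chr11:117849251-117855743), had the lowest adjusted p of the members. Its level was 42.3 and 77.2 CPM for Sham, 173 and 214 for IMQ, and 183 and 147 for IMQ+SHP099 (1.92, SE 0.31, adjusted p = 0.00789). The 4 cream-treated libraries thus lay above the Sham libraries without overlap. Its partner Cdca8, or borealin, and the spindle pole kinase Aurka rose by 1.26 and 1.43 (adjusted p = 0.0447 and 0.0367). Aurkb and Plk1 were at 1.12 and 1.49 and missed the threshold. Of the kinetochore and spindle checkpoint members 1 of 5 rose, Cenpa, the histone H3 variant that marks centromeres. It was at 55.0 and 74.7 CPM for Sham and 142 and 174 for IMQ (1.47, SE 0.27, adjusted p = 0.0132).

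Mki67 and Top2a, the most used markers of dividing cells, did not pass the test in basal keratinocytes. Mki67 was at 45.4 and 171 CPM for Sham, 87.7 and 126 for IMQ, and 96.2 and 78.8 for IMQ+SHP099 (log2 fold change 0.30, SE 0.43, adjusted p = 0.679). Top2a, the topoisomerase that untangles sister chromosomes, was at 53.4 and 208 for Sham, 102 and 162 for IMQ, and 141 and 152 for IMQ+SHP099 (0.33, SE 0.44, adjusted p = 0.647). In both genes Sham replicate 2 was the highest of the 6 libraries and Sham replicate 1 the lowest, so IMQ and Sham overlapped. Without Sham replicate 2 the fold changes were higher, and that of Top2a passed at 1.21 (adjusted p = 0.0448), and without Sham replicate 1 both were below 0 (-0.21 and -0.19). In all, 8 members had Sham replicate 2 above both IMQ libraries, which 65.3% of all genes tested showed. Sham replicate 2 was above Sham replicate 1 in 44 of 45 members and in 76.2% of all genes tested.

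The spindle motors and microtubule proteins gave 0 of 7 calls, beside 6.6% of all genes tested that rose. A count of 0 in a group of 7 is close to that share. Prc1, which bundles the microtubules of the spindle midzone and had the highest mean level of this role in keratinocytes, was at 52.1 and 91.3 CPM for Sham, 44.2 and 69.1 for IMQ, and 72.0 and 73.7 for IMQ+SHP099 (-0.12, adjusted p = 0.791). Kif23, Prc1 and the kinetochore protein gene Cenpf were the 3 members with a fold change below 0, at -0.16, -0.12 and -0.31. The 7 ranged up to 0.85, in Hmmr.

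**Figure D2:**
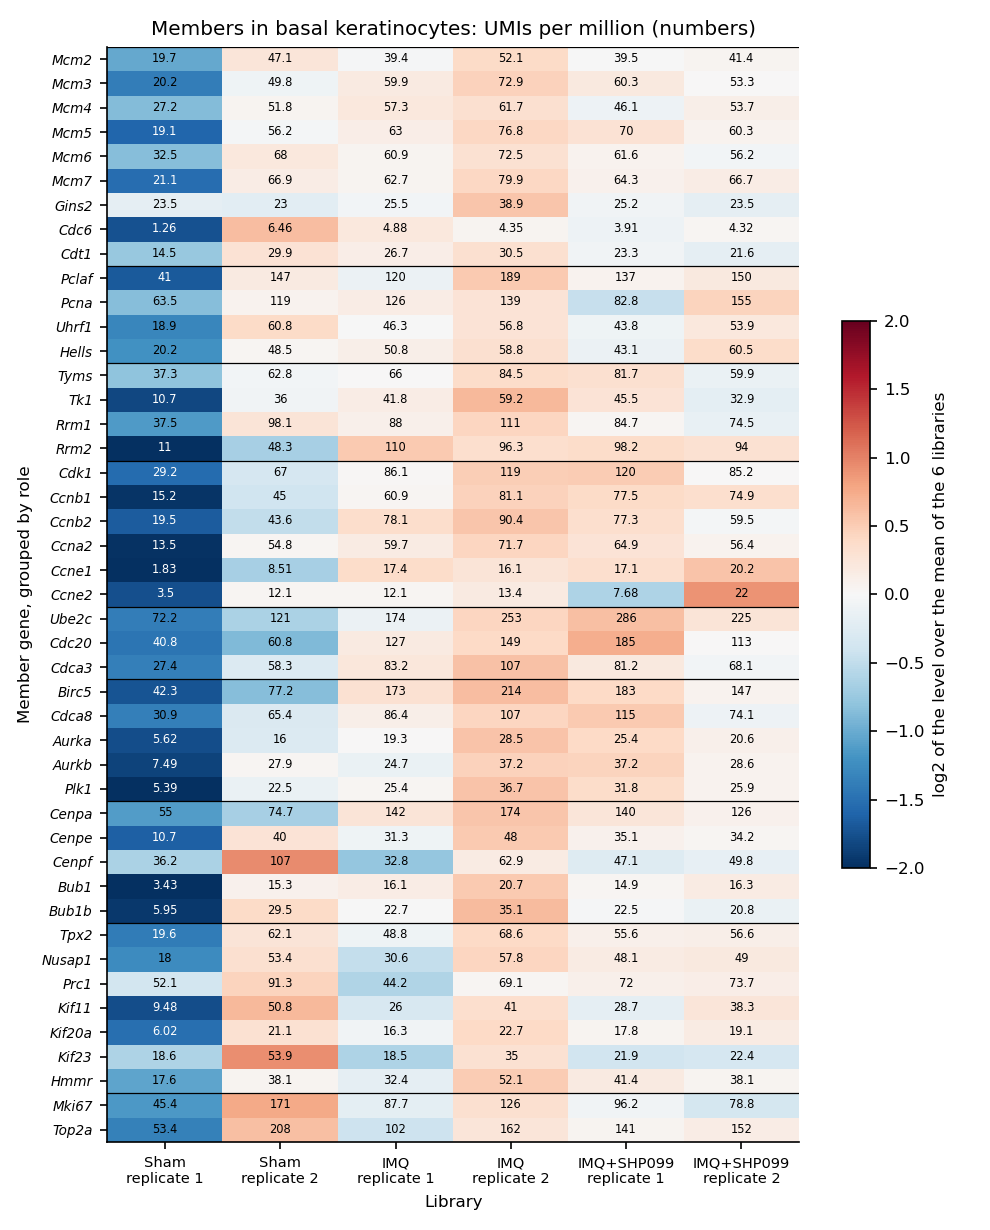
CPM of the 45 members (rows, grouped by role) in the basal keratinocytes of each of the 6 libraries (columns), as numbers, with colour for the log2 of the level over the gene's mean of the 6 libraries. Sham replicate 1 is lowest in most rows, and Birc5, Cdc20, Cenpa, Ccnb2 and Rrm2 are higher in the 4 cream-treated libraries than in both Sham libraries.

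Among the replication members 3 of 19 rose in basal keratinocytes, beside 6.6% of all genes tested. All 19 had a fold change above 0, beside 46.4% of all genes tested. Rrm2, the regulated subunit of ribonucleotide reductase, had the highest fold change of all members. It was at 10.96 and 48.3 CPM for Sham, 110 and 96.3 for IMQ, and 98.2 and 94.0 for IMQ+SHP099 (2.15, SE 0.47, adjusted p = 0.023). Its partner Rrm1, the catalytic subunit, was at 37.5 and 98.1 for Sham and 88.0 and 111 for IMQ, and the groups overlapped (0.83, adjusted p = 0.126). Of the 9 members of origin licensing and the helicase, Mcm3 rose, from 20.2 and 49.8 to 59.9 and 72.9 (1.20, SE 0.30, adjusted p = 0.0364). Mcm5, whose promoter holds both motifs, was at 19.1 and 56.2 for Sham, 63.0 and 76.8 for IMQ, and 70.0 and 60.3 for IMQ+SHP099, with no overlap but an adjusted p of 0.0569 (1.19, SE 0.35). Mcm7 was at 21.1 and 66.9 for Sham and 62.7 and 79.9 for IMQ (1.00, adjusted p = 0.0986). Pcna was at 63.5 and 119 for Sham, 126 and 139 for IMQ, and 82.8 and 155 for IMQ+SHP099 (0.77, adjusted p = 0.134), and of its role group of 4 none was called.

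Over all keratinocytes, the sum fixed in the design, 3 of 45 members rose with IMQ and 0 fell, and 4.86% of the 14537 genes tested rose and 7.08% fell (11.9% in either direction). The share of members called was thus close to that of all genes. The 3 were Birc5 (log2 fold change 1.62, SE 0.38, adjusted p = 0.0327), Ccne1 (1.81, SE 0.43, adjusted p = 0.0333) and Rrm2 (1.80, SE 0.44, adjusted p = 0.0373), and all 3 were also called in basal keratinocytes. Birc5 was at 29.9 and 51.4 CPM for Sham, 94.5 and 105 for IMQ, and 131 and 74.6 for IMQ+SHP099. The median of the members was 0.61, and that of all genes -0.08. The count was 10 without Sham replicate 2, 1 without Sham replicate 1, 0 without IMQ replicate 1 and 0 without IMQ replicate 2. It was 6 when either IMQ+SHP099 library was left out. Without the hair matrix gate it was 7. In basal keratinocytes the share of all genes called moved as well when a library was left out. These counts therefore do not describe the members alone. The sum of the members stood at 797 and 1793 CPM for Sham, 1499 and 1791 for IMQ, and 2230 and 1543 for IMQ+SHP099, and Sham overlapped with IMQ, with Sham replicate 2 the highest of these 4.

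Genes around the members were taken from a list of 64 regulators and further cell cycle genes. In basal keratinocytes 8 of the 32 further cell cycle genes rose and 0 fell, beside 6.6% and 7.41% of all genes tested. Cks1b, which encodes a small subunit bound to CDKs, was at 50.4 and 90.2 CPM for Sham, 222 and 241 for IMQ, and 204 and 206 for IMQ+SHP099 (1.95, SE 0.29, adjusted p = 0.00552). Tacc3, a spindle protein gene, and Gmnn, which encodes the licensing inhibitor geminin, rose by 1.63 and 1.55 (adjusted p = 0.00807 and 0.00947). H2afz, Chaf1b, Rpa2 and Asf1b were also among those that rose. Of the 16 drivers 1 rose and 1 fell, which is close to these shares of all genes. Mybl2, a transcription factor of mitotic genes, rose from 1.69 and 8.203 to 17.2 and 18.6 (2.23, SE 0.49, adjusted p = 0.0239). Ccnd2, which encodes cyclin D2, fell from 317 and 410 CPM in Sham to 43.8 and 67.5 in IMQ, and it was at 53.7 and 69.9 in IMQ+SHP099 (-2.53, SE 0.31, adjusted p = 0.00292). All 4 libraries that received the cream thus lay below both Sham libraries for Ccnd2 and above both for Cks1b.

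Of the 16 inhibitors, 15 passed the filter and 1 was called, which fell. This is close to the 7.41% of all genes tested that fell. Wee1, the kinase that holds CDK1 inactive, fell from 97.5 and 55.9 CPM in Sham to 24.9 and 25.3 in IMQ, and it was at 34.4 and 42.2 in IMQ+SHP099 (-1.54, SE 0.41, adjusted p = 0.042). Cdkn1a, which encodes the CDK inhibitor p21, was at 231 and 235 for Sham, 207 and 128 for IMQ, and 246 and 221 for IMQ+SHP099 (-0.31, SE 0.37, adjusted p = 0.606). Over all keratinocytes its fold change was 0.19 (adjusted p = 0.733), while its mean level was 399 CPM for Sham and 378 for IMQ. Fold changes come from the test's own scaling and fit, so their sign can differ from that of the CPM.

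In fibroblasts the members ran the other way, and no member passed the threshold. All 45 fold changes of IMQ against Sham were below 0, with a median of -1.85, beside 0.00 over all 15131 genes tested. At an unadjusted p under 0.05 there were 30 members, beside 12.9% of all genes, and the lowest adjusted p was 0.0588, in Cenpf (-2.89, SE 0.46). Of all genes tested 0.443% were called, 0.264% higher and 0.178% lower. DESeq2 called 18 members and 5.33% of all genes, and edgeR called 8 members and 0.764% of all genes without Sham replicate 1. Without Sham replicate 2 it called 0 members and 0.0194% of all genes, the median of the members was -0.62, 9 of 45 had a fold change above 0, and Mki67 was at -1.84 (adjusted p = 0.289). Mki67 was at 15.6 and 66.6 CPM for Sham, 4.91 and 4.57 for IMQ, and 7.51 and 2.84 for IMQ+SHP099 (-2.94, SE 0.66, adjusted p = 0.112). Top2a was at 24.9 and 110 for Sham, 7.52 and 7.48 for IMQ, and 9.97 and 6.84 for IMQ+SHP099 (-2.98, SE 0.56, adjusted p = 0.0769). Both Sham libraries lay above the other 4 for these 2 genes, with Sham replicate 2 the highest by far. In 29 members both Sham libraries were above both IMQ libraries, which 22.6% of all genes tested showed. In all 45 Sham replicate 2 was above the 4 IMQ and IMQ+SHP099 libraries, as in 53.5% of all genes tested.

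The mitosis members had the lower fold changes in fibroblasts, with a median of -2.12, against -1.08 for the replication members. Pcna, which also serves DNA repair, was at 34.3 and 100 CPM for Sham, 55.2 and 54.5 for IMQ, and 32.6 and 61.5 for IMQ+SHP099 (-0.14, adjusted p = 0.968), and it had the smallest change of the members. The sum of the members was 402 and 1538 CPM for Sham, 303 and 295 for IMQ, and 333 and 241 for IMQ+SHP099. The ratio of mitosis to replication UMIs was 1.07 and 1.28 for Sham, 0.59 and 0.43 for IMQ, and 0.61 and 0.35 for IMQ+SHP099, so both Sham libraries lay above the other 4. In basal keratinocytes this ratio was 1.56 and 1.61 for Sham and 1.53 and 1.73 for IMQ, and the groups overlapped. The thinned share of fibroblasts was 4.20% and 13.6% for Sham, 3.69% and 3.62% for IMQ, and 3.85% and 2.28% for IMQ+SHP099. In the IMQ libraries the neutrophil shares were 3.17% and 1.12%.

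**Figure D3:**
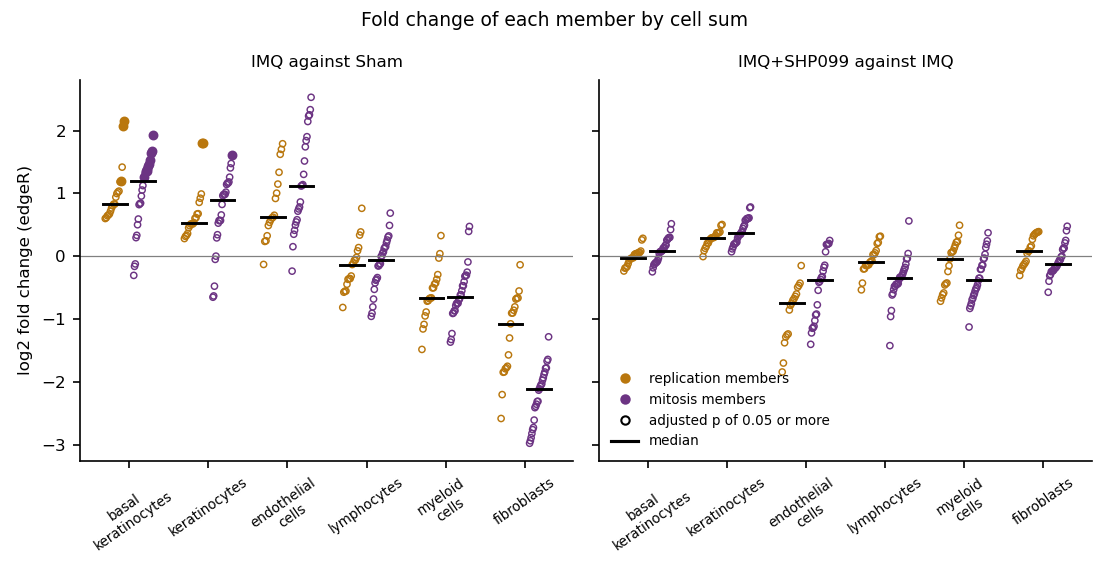
edgeR log2 fold change (y axis) of each member that passed the filter in 6 cell sums (x axis), for IMQ against Sham (left) and IMQ+SHP099 against IMQ (right), where filled points passed an adjusted p of 0.05, open points did not, and black lines are medians of the replication and mitosis members. The medians of IMQ against Sham run from 1.19 for mitosis members in basal keratinocytes to -2.12 in fibroblasts, and the right panel holds no filled point.

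Lymphocytes had the highest level of the members per UMI of the 9 classes in Sham, at 1931 and 3397 CPM, against 2434 and 1662 for IMQ and 1757 and 2000 for IMQ+SHP099. After thinning, 48.8% and 52.4% of Sham, 37.4% and 29.7% of IMQ, and 53.1% and 43.4% of IMQ+SHP099 lymphocytes were counted. Both IMQ libraries lay below the other 4 in this measure. Thinning left out 335 and 111 Sham, 341 and 113 IMQ, and 414 and 299 IMQ+SHP099 lymphocytes. IMQ+SHP099 replicate 1 thus kept few of its 446 lymphocytes, and its share rests on these. Without thinning the IMQ+SHP099 shares of 50.4% and 59.3% lay below those of IMQ, 59.9% and 61.3%, so the order of these 2 groups depended on the depth correction. In the test of IMQ against Sham 0 members were called (0% of 9495 genes in edgeR), 1 had an unadjusted p under 0.05 (14.2% of all genes), and the median was -0.12. DESeq2 called 0 members too. Mki67 was at 95.3 and 222 CPM for Sham and 94.96 and 73.7 for IMQ (-0.68), with the nearest libraries of the groups almost equal. Birc5 was at 64.0 and 114 for Sham and 151 and 96.7 for IMQ (0.69), and the groups overlapped.

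Myeloid cells had a smaller share of counted cells in IMQ than in Sham, at 13.6% and 16.9% against 22.0% and 28.2% after thinning, while the IMQ+SHP099 libraries spanned both groups at 24.4% and 9.40%. Among cells of the monocyte gate the share was 33.3% and 26.1% for Sham, 7.58% and 13.8% for IMQ, and 15.8% and 6.84% for IMQ+SHP099. Monocytes were 33 of 295 and 222 of 983 myeloid cells in Sham and 443 of 672 and 447 of 627 in IMQ. In the macrophage gate Sham and IMQ overlapped, at 27.3% and 19.8% against 29.3% and 21.3%. For single genes, 41 of the 45 members had a fold change below 0, with a median of -0.66 beside -0.02 for all genes. None was called (0% of 10969 genes in edgeR, 0 in DESeq2), and 3 had an unadjusted p under 0.05, beside 9.15% of all genes, among them Top2a, at 89.9 and 102 CPM for Sham and 39.2 and 37.5 for IMQ (-1.23, adjusted p = 0.497). With the single marker genes of the study as the gate, 5 members were called, all lower, beside 6.78% of all genes.

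Endothelial cells had higher levels in IMQ than in Sham, and no member was called. The sum of the members was 265 and 764 CPM for Sham, 1095 and 1128 for IMQ, and 944 and 532 for IMQ+SHP099. Both IMQ libraries lay above the other 4. Of the 41 members that passed the filter 39 had a fold change above 0, with a median of 0.86 beside -0.03 for all genes, and 14 had an unadjusted p under 0.05, beside 15.0% of all genes. Of the 10177 genes 0.0983% were called, 0.0688% higher and 0.0295% lower. Ube2c had the lowest adjusted p, at 5.41 and 15.0 CPM for Sham, 65.0 and 72.1 for IMQ, and 68.9 and 36.4 for IMQ+SHP099 (2.53, adjusted p = 0.0868). These levels rest on few molecules, 2 and 49 UMIs for Sham and 146 and 164 for IMQ. DESeq2 called 1 member and 0.747% of all genes. Without Sham replicate 1 edgeR called 4 members and 5.41% of all genes, and without Sham replicate 2 it called 0 of the 38 members tested. The thinned share of endothelial cells overlapped between the groups, at 7.32% and 13.3% for Sham and 16.1% and 11.2% for IMQ.

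The addition of SHP099 to IMQ moved no member past the threshold in any of the 6 sums fixed in the design or in basal keratinocytes. Of all genes 0% were called in every sum but fibroblasts, where 1 gene, not a member, was called (0.00661%). DESeq2 called 0 members in each of these sums. At an unadjusted p under 0.05 there were 0 members in basal keratinocytes, fibroblasts and myeloid cells, 1 in keratinocytes, 1 in lymphocytes and 3 in endothelial cells, beside 1.22% to 3.3% of all genes in these sums. In basal keratinocytes the members' median was 0.04, with a range from -0.25 to 0.52 and 26 of 45 above 0, beside 0.00 for all genes. Of the members that had risen with IMQ, Birc5 was at -0.07 (SE 0.30) and Rrm2 at 0.04 (SE 0.45). A fold change of this error does not show that the groups were alike. The medians were 0.33 in keratinocytes, -0.06 in fibroblasts, -0.24 in myeloid cells, -0.20 in lymphocytes and -0.64 in endothelial cells. In endothelial cells 35 of 41 members were below 0.

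Over all cells of a library the sum of the members was 786 and 1610 CPM for Sham, 968 and 705 for IMQ, and 2032 and 575 for IMQ+SHP099. The 2 IMQ+SHP099 libraries were the highest and the lowest of the 6. Keratinocytes were 5608 of 8688 cells in the one and 525 of 7382 in the other, and 6301 of 8584 and 1915 of 8231 in Sham, and 1412 of 7672 and 861 of 10293 in IMQ. Keratinocytes made up 92.5% of the cells with 10 or more member UMIs per 10000 in IMQ+SHP099 replicate 1 and 34.1% in replicate 2, against 74.4% and 31.2% for Sham and 55.4% and 46.6% for IMQ. In whole-skin sums the number of cells of a class and the RNA of each cell cannot be told apart. In the test over all cells 0 members were called in either comparison (0% of 17382 genes in edgeR, 0 in DESeq2), and 0 had an unadjusted p under 0.05, which 7.28% and 0.299% of all genes had. On simulated data with 4-fold changes this edgeR test recovered 2.54% and 0.508% of the changed genes. A count of 0 here therefore does not show that the groups were alike. For IMQ+SHP099 against IMQ all 45 members had a fold change above 0 over all cells, with a median of 1.06 beside 0.04 for all genes, and the keratinocyte-rich IMQ+SHP099 replicate 1 was above the other 5 libraries in the summed level.

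**Figure D4:**
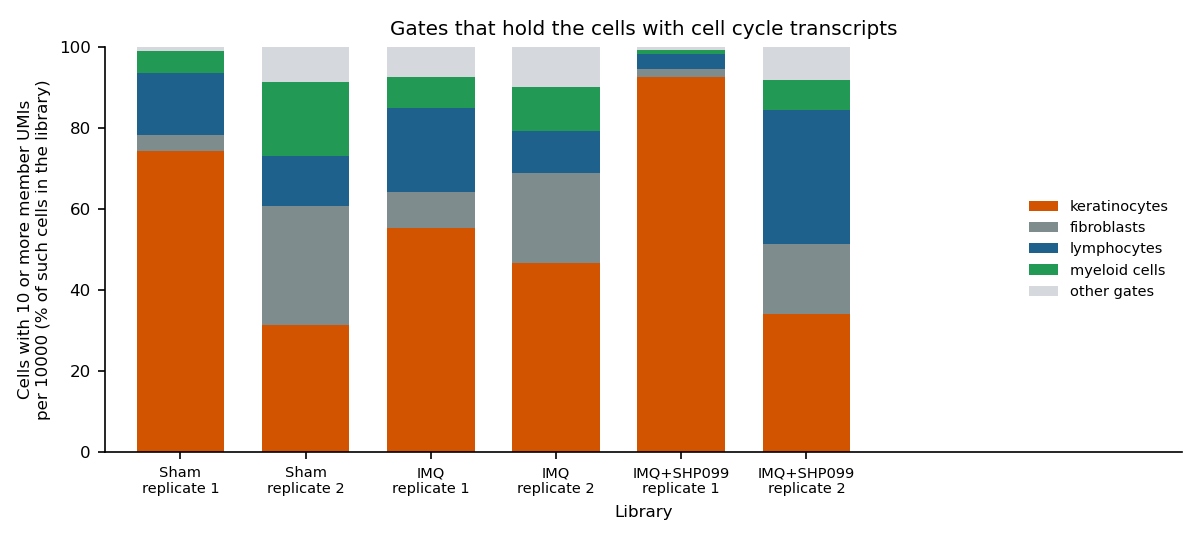
Class of the cells with 10 or more member UMIs per 10000 (y axis, % of such cells in a library) in each of the 6 libraries (x axis). Keratinocytes (orange) are 92.5% in IMQ+SHP099 replicate 1 and 31.2% in Sham replicate 2, where fibroblasts (grey) are 29.4%.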

How the data were processed

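Single-cell RNA was captured from dorsal skin with the 10x Genomics droplet method, and the authors deposited a matrix of counts (UMIs per gene and barcode, not normalized) for each of the 6 libraries. Per the submitters' processing notes and the study's methods, these came from Cell Ranger 3.1.0 on mm10 (GRCm38). The lowest deposited barcode held 500 UMIs, so barcodes had already been filtered for cells. Cells with 100000 or more UMIs, 6500 or more genes or a mitochondrial share of 10% or more were dropped. No doublet caller was run, and a stricter gate, in which the second class score was at most 0.5 of the first, served as an alternative. Each cell went to the class with the highest mean of scaled marker levels (134 of 135 markers found), and keratinocytes and myeloid cells were divided further into 4 and 5 gates. The gates were rebuilt here and are not the study's own cell labels.

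Levels are CPM, the UMIs of a gene scaled to a common total over the summed cells of a class. Fold changes come from the scaling and fit of the test and can differ from a ratio of CPM, also in sign. Counts were summed per library and class and tested with edgeR 4.0.16 in R 4.3.3 (TMM scaling, quasi-likelihood test, filterByExpr, all 6 libraries in 1 fit, group as the only term), with Benjamini-Hochberg adjustment over all genes tested and a threshold of 0.05. All adjusted p-values and fold changes in the text come from this test unless DESeq2 1.42.0 is named. The tests ran on 6 sums fixed in the design (all cells and 5 classes) and on basal keratinocytes, added after the data were seen. The scripts were tested on simulated data with 4-fold changes. For IMQ against Sham, edgeR recovered 73.2% of the changed genes in keratinocytes, 36.6% in myeloid cells and 2.54% over all cells. IMQ+SHP099 was not tested against Sham. For shares of cells, each cell of at least 3000 UMIs was thinned to 3000 at random. Intervals and limits for a count of 0 (3 counts) cover counting error only. Single genes are given for 6 members and Cdkn1a chosen by name, for members past the threshold (at most 3 per role, by fold change) and for the highest member of each role. Other genes named for contrast were chosen after their values were seen. The members, the gene lists and the markers were chosen with earlier results of these data known.

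Alternatives were another scaling (RLE), no filter on low counts, only the 2 groups compared, DESeq2, each library left out, a replicate block, other gates, other thresholds, a mitochondrial limit of 5% and a sum without the 3 highest members (Pcna, Ube2c and Top2a). Promoter sequences are RefSeq entries on GRCm38.p6.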

Additional observations from a re-analysis of the deposited data

Results flagged for a closer look

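The share of cells with 3 or more member UMIs of 3000 moved in opposite directions in different classes. From Sham to IMQ it was 18.6 points higher in keratinocytes, with both IMQ libraries above both Sham libraries. It differed by -17.0 points in lymphocytes, by -9.86 points in myeloid cells and by -5.25 points in fibroblasts, and in each of these classes the IMQ libraries were both lower than either Sham library. The difference between the classes was not tested. In lymphocytes thinning left out cells of every library, and the difference was smaller with a limit of 1 or more UMIs. The summed level of the members in lymphocytes overlapped, at 1931 and 3397 CPM for Sham and 2434 and 1662 for IMQ. The fibroblast value rests mostly on Sham replicate 2, at 13.6% beside 4.20% in Sham replicate 1 and 3.69% and 3.62% in IMQ.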

How the results depend on the processing

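With 2 libraries a group, 32 of the counts of called members under an alternative moved by over 1.5 times and 160 did not, and depth limits the small classes. Counts that stayed at 0, such as those of IMQ+SHP099 against IMQ, are among the 160. For IMQ against Sham, the count of 3 in keratinocytes was 18 with no filter on low counts, 6 with only the 2 groups compared, 10 in DESeq2, 1 with the study's single marker genes, 6 with a mitochondrial limit of 5%, 7 without hair matrix cells and 13 in basal cells, and 0 to 10 with 1 library left out. The count of 13 in basal keratinocytes was 26 with no filter, 8 with only the 2 groups compared, 21 in DESeq2 and 1 to 33 with 1 library left out. The count of 0 was 32, 18 and 0 to 8 in fibroblasts (no filter, DESeq2, 1 library left out), 12, 1 and 0 to 4 in endothelial cells, and 5 with the study's markers in myeloid cells. For IMQ+SHP099 against IMQ the count stayed at 0 in all settings run. For IMQ against Sham the share of all genes called also moved with the setting, as given above for basal keratinocytes, fibroblasts and endothelial cells. The counts under the alternatives therefore do not describe the members alone. The cause of these shifts was not tested.

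The labels do not say that replicate numbers pair libraries. With the replicate number as a block, 7 members were called in keratinocytes, 23 in basal keratinocytes and 3 in fibroblasts for IMQ against Sham. The block changes the fit of every gene, so these counts do not describe the members alone. The correlations of same-numbered libraries' deviations ran from -0.00629 in fibroblasts to 0.562 over all cells.

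Directions that turned concern uncalled genes. Mki67 in keratinocytes (-0.05) was 0.00716 with RLE, 0.00688 in DESeq2, 0.0314 without hair matrix cells and 0.30 in basal cells, and with 1 library left out it ran from -0.55 to 0.80, and from -0.21 to 1.13 in basal cells. Top2a in keratinocytes (0.00) was -0.00017 with no filter, -0.18 with the study's markers and -0.47 (without Sham replicate 1) to 0.80 with 1 library left out, and it ran from -0.19 to 1.21 in basal cells. Cdkn1a in keratinocytes (0.19) was -0.31 in basal cells, and with 1 library left out it ran from -0.0285 to 0.47, and from -0.76 to 0.0202 in basal cells.

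The log2 ratio of summed levels for IMQ against Sham, with 1 library left out, ran from -0.94 to 0.0889 in all cells, from -0.12 to 1.05 in keratinocytes, from -2.36 to -0.43 in fibroblasts and from 0.54 to 2.07 in endothelial cells, and it was -1.36 in myeloid cells with the study's markers (-0.65 otherwise). For IMQ+SHP099 against IMQ it ran from -0.54 to 1.28 in all cells, -0.31 to 0.16 in fibroblasts (-0.32 with the study's markers), -0.93 to 0.22 in myeloid cells, -0.37 to 0.18 in lymphocytes and -1.06 to -0.24 in endothelial cells. The unthinned share (3 or more per 10000) differed between IMQ and Sham by 11.5 points in keratinocytes, and by 18.2 at 10 per 10000, 18.6 thinned with 3 or more and 31.7 in basal cells. In lymphocytes it was -11.3, and -5.03 thinned with 1 or more and -17.0 thinned with 3 or more. In myeloid cells it was -9.54, and -23.3 with the study's markers. For IMQ+SHP099 against IMQ it was 0.918 in fibroblasts and -2.54 thinned, -3.63 in endothelial cells and 2.38 and -0.629 thinned, and -5.73 in lymphocytes, with 3.51 at 10 per 10000 and -0.235 and 14.7 thinned.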
